A study of Mus musculus with 6 samples.

Results

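The 10 genes described here were taken as markers of tissues that lie next to or around the mouse prostate. Svs2, Svs4, Svs5 and Svs6 encode secretory proteins of the seminal vesicle, Acta1, Ckm and Myh4 are genes of skeletal muscle fibres, and Adipoq, Plin1 and Fabp4 are genes of fat cells. They were chosen by name as tissue markers, with earlier results of these data known, and are 10 of the 34745 genes in the deposited table. The RNA came from prostate tissue of male C57BL/6 mice that were 6 to 8 weeks old at the start. The 3 mice of the T + E2 group carried subcutaneous slow-release pellets of testosterone and estradiol for 12 weeks as a model of benign prostatic hyperplasia, and the 3 mice of the CON group had the skin incision without a pellet. Each library came from 1 mouse, and these mice were used for sequencing alone. The labels call every sample prostate and do not name the lobe.

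The seminal vesicles are paired glands that open into the urethra beside the prostate and lie along its anterior lobes. Under androgen their epithelium makes very large amounts of a few secretory proteins. Svs2, Svs4, Svs5 and Svs6 lie in a cluster on chromosome 2, and proteins of the gland form the copulatory plug. Skeletal muscle fibres surround the urethra below the bladder and are defined by sarcomere proteins such as skeletal actin (Acta1) and the fast myosin heavy chains (Myh4), and by muscle creatine kinase (Ckm), which buffers ATP. Fat cells lie around the urogenital tract, store lipid in droplets coated by perilipin (Plin1), carry fatty acids on Fabp4 and secrete the hormone adiponectin (Adipoq). In bulk tissue, fewer cells of a type and less RNA per cell cannot be told apart.

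The 4 Svs genes lie within a stretch of chromosome 2 in coordinates that match build GRCm38. Svs2 spans chr2:164235929-164238466 and Svs4 spans chr2:164275952-164278459, both on the minus strand. Svs6 spans chr2:164316751-164318453 and Svs5 spans chr2:164332740-164334396, both on the plus strand. The 250 bases before each RefSeq start (GRCm38.p6) are printed 5′ to 3′ because Svs5 and Svs6 differed widely in level while their upstream sequences are close to each other. Capitals mark TATAAA and AGAACA on either strand, so that TTTATA and TGTTCT are their reverse complements. TATAAA is the core of the TATA box, and AGAACA is a half-site of the DNA element bound by the androgen receptor and related steroid receptors.
Svs2 (chr2:164238342-164238591, minus strand): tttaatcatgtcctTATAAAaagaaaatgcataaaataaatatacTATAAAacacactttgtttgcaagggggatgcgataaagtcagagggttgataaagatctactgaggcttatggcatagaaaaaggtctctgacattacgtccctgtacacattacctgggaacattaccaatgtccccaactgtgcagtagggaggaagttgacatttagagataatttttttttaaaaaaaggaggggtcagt
Svs4 (chr2:164278308-164278557, minus strand): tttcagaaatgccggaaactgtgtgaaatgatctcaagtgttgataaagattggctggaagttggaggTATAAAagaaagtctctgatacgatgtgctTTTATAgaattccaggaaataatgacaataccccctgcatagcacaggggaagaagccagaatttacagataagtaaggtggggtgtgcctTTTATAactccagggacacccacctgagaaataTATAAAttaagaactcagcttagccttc
Svs5 (chr2:164332515-164332764, plus strand): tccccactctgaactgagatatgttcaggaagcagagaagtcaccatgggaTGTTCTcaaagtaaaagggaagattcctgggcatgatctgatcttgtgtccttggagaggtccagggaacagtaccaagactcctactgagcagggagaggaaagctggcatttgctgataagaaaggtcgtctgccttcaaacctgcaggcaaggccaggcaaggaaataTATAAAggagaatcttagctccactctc
Svs6 (chr2:164316501-164316750, plus strand): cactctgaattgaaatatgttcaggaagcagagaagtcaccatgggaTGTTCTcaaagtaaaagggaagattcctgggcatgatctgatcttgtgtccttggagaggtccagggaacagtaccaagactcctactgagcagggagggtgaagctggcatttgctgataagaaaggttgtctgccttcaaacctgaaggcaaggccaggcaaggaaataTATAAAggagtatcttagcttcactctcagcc

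The upstream sequences of Svs5 and Svs6 were identical at 237 of 254 aligned columns (93.3%), and the other 5 pairs among these 4 genes were 48.4% to 57.6% identical. Both Svs5 and Svs6 held TATAAA shortly before the start, at -28 and -32, and TGTTCT at -199 and -203. Svs4 held TATAAA in 4 places, the nearest to the start at -28, and Svs2 held it at -236 and -205 only. AGAACA was not found in the 250 bases of Svs2 or Svs4 on either strand. Of 32851 promoters of the same length, 12.4% held TATAAA and 16.1% held AGAACA, so both motifs are common and a match is only a description of the letters. The RefSeq starts of Svs2, Svs4 and Svs5 lie inside the deposited gene spans, and positions count from the RefSeq start.

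Total counts per library lay between 14816146 and 16555549, and 3 counts, taken as the detection limit, corresponded to 0.182 to 0.207 CPM (counts scaled to library size with TMM factors). Of the 34745 genes, 15580 passed the filter on low counts and were tested. The tissue label held in all 6 mice: the prostate epithelial list had summed levels of 40564 to 53932 CPM in the CON group and 18362 to 20263 CPM in the T + E2 group, with none of its 10 genes at 0. Of that list Pbsn and Tgm4, secretory products of the prostate, were lower in the T + E2 group (log2 fold changes -3.29 and -2.91, edgeR adjusted p = 2.45e-05 and 0.000158), and Msmb was higher (1.10, adjusted p = 0.00122). Epcam, named here after its values were seen, was also higher (1.18, edgeR adjusted p = 0.000175). Spink1 had a log2 fold change of 0.72 (adjusted p = 0.0252), below the fold threshold. The libraries CON 2 and T + E2 2 stood apart from the rest in the genes described here. CON 2 did so in the seminal vesicle and fat genes, and T + E2 2 in some of the seminal vesicle genes. In the muscle genes CON 2 was high together with CON 3 and T + E2 3. The comparisons of the seminal vesicle, muscle and fat genes are therefore also given without CON 2, and for the 10 genes without both CON 2 and T + E2 2. Both mice were picked out by their levels of these same genes. Leaving out the CON mouse with the highest level of a gene raises its fold change by construction. These runs therefore show how far the fold changes rest on those mice and are no test of the treatment. A gene was called differentially expressed (DEG) when its log2 fold change exceeded 1 in size with an adjusted p below 0.05. By this rule 2 of the 10 prostate epithelial genes were higher and 2 lower, beside 4.27% and 3.38% of all tested genes.

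Seminal vesicle transcripts were abundant in 1 CON mouse, present in 1 T + E2 mouse and close to the detection limit in the remaining 4. Summed over Svs2, Svs4, Svs5 and Svs6, CON 2 had 150488 counts, which was 1.01% of its library (95% Clopper-Pearson interval 1.01 to 1.02%, covering counting error only). T + E2 2 had 9860 counts, or 0.0596% of its library (0.0584 to 0.0607%). CON 1, CON 3, T + E2 1 and T + E2 3 had 56, 10, 38 and 17 counts. Thus both groups held a single mouse with a high sum, and the high CON mouse exceeded the high T + E2 mouse on the CPM scale (9873 against 599.6 CPM). In T + E2 2 not all 4 genes were high, since Svs6 had 3 counts there. The tissue that these transcripts came from was not tested.

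Svs4 is a small basic secretory protein of the gland. Its counts were 15, 69802 and 2 in CON 1, CON 2 and CON 3 and 6, 109 and 5 in T + E2 1, T + E2 2 and T + E2 3. CON 2 was therefore the high mouse by a factor of 691 in CPM over T + E2 2, which was second. Svs5 had 17, 76732 and 5 counts in CON mice and 12, 1799 and 6 in T + E2 mice. Here CON 2 was 46.0-fold above T + E2 2 in CPM, and T + E2 2 in turn stood far above the other 4 mice. Svs2, a major component of the copulatory plug, had 23, 3371 and 3 counts in CON mice and 18, 7949 and 6 in T + E2 mice. For this gene the order of the 2 high mice was turned round, with 483.4 CPM in T + E2 2 and 221.2 CPM in CON 2. Svs6 had 1, 583 and 0 counts in CON mice and 2, 3 and 0 in T + E2 mice. Svs6 was thus above 3 counts in CON 2 alone, and the groups overlapped for all 4 genes.

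**Figure D1:**
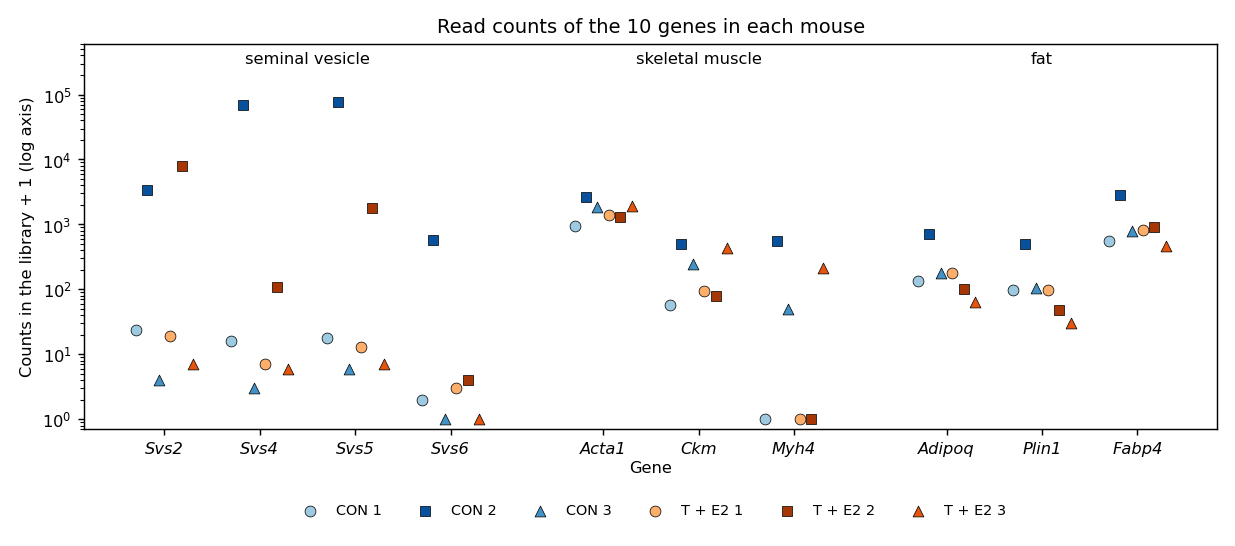
Read counts plus 1 on a log axis for each of the 10 genes, with 1 point per mouse (blue, CON; orange, T + E2; circle, square and triangle for mice 1, 2 and 3). The squares of CON 2 and T + E2 2 stand above the other mice for Svs2, Svs4 and Svs5, and the square of CON 2 is the highest point for every gene but Svs2.

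The make-up of the counts on the seminal vesicle list differed between the 2 high mice. Of the counts on the 9 listed seminal vesicle genes, CON 2 had 48.8% on Svs5 (48.6 to 49.1%), 44.4% on Svs4 (44.2 to 44.7%), 3.71% on Pate4 and 2.15% on Svs2 (2.07 to 2.22%). T + E2 2 had 75.3% on Svs2 (74.4 to 76.1%), 17.0% on Svs5 (16.3 to 17.8%), 6.52% on Pate4 and 1.03% on Svs4 (0.848 to 1.24%). The intervals of the 2 mice did not overlap for Svs2, Svs4 or Svs5, although they compare 2 libraries and not the 2 conditions. There were 0.0483 Svs2 counts for each Svs4 count in CON 2 and 72.9 in T + E2 2. In the other 4 mice this ratio lay between 1.20 and 3.00, with at most 23 counts on either gene.

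Compared per length, Svs4 stood at 6432 FPKM and Svs5 at 5127 FPKM in CON 2, while Svs2 and Svs6 stood at 71.5 and 73.4 FPKM. In T + E2 2 the order was Svs2 at 151.3 FPKM, Svs5 at 108 FPKM, Svs4 at 9.01 FPKM and Svs6 at 0.339 FPKM. Svs5 and Svs6, whose upstream sequences printed above are nearly the same, differed by a factor of 131.6 in counts and 69.9 in FPKM in CON 2. In T + E2 2 there were 1799 counts on Svs5 and 3 on Svs6. The transcripts of Svs5 and Svs6 matched over 106 bases at 85.8% identity and those of Svs2 and Svs3a over 113 bases at 80.5%, and no listed Svs gene other than the pair Svs3a and Svs3b shared a longer match of at least 80% identity with another.

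The other listed seminal vesicle genes were also high in CON 2, with fewer counts. Pate4, a small secreted protein of the gland, had 2, 5828 and 0 counts in CON mice and 4, 688 and 1 in T + E2 mice. Svs1 had 4, 525 and 0 counts in CON mice and 3, 4 and 0 in T + E2 mice. Svs3a had 0, 239 and 0 against 6, 3 and 4 counts, and Svs3b had 0, 47 and 0 against 7, 5 and 3. Pate4 was the only one of these genes that stood above 10 counts in T + E2 2. The values of Svs3a and Svs3b are uncertain because their transcripts were 98.1% identical over 1034 bases. Sva had 0 counts in all 6 mice. CON 2 was the highest mouse for 7 of the 8 genes with counts, with Svs2 as the exception.

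**Figure D2:**
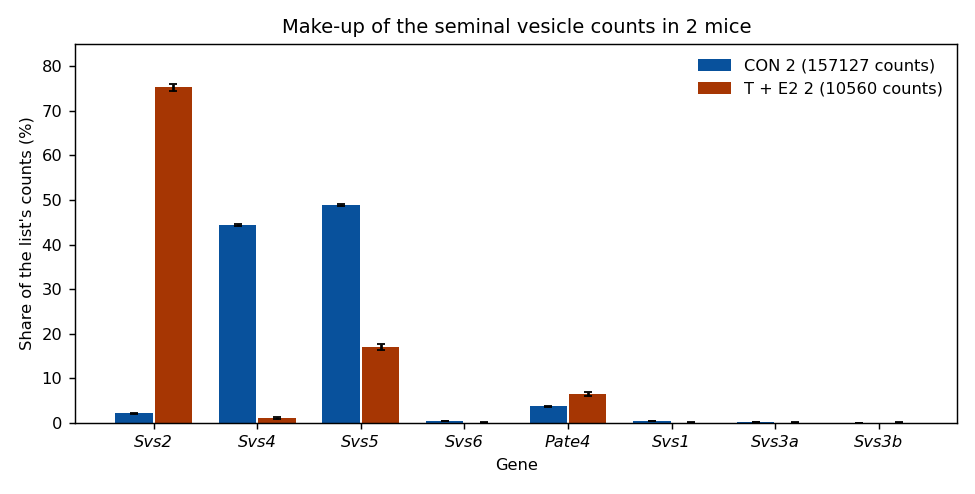
Share of the seminal vesicle counts (%) taken by each of 8 genes in CON 2 (157127 counts, blue) and T + E2 2 (10560 counts, orange), with 95% Clopper-Pearson intervals. Svs5 and Svs4 make up most of the counts in CON 2, and Svs2 makes up most of them in T + E2 2.

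Skeletal muscle transcripts followed another set of mice. The summed CPM of Acta1, Ckm and Myh4 was 66.0, 242.2 and 135.7 in CON mice and 104.8, 83.1 and 172.8 in T + E2 mice. CON 2, T + E2 3 and CON 3 were thus the 3 highest mice, and the groups overlapped. CON 3 and T + E2 3 had 10 and 17 counts on the 4 Svs genes, so their muscle transcripts came without a seminal vesicle signal, and T + E2 2, with 9860 Svs counts, was among the 3 lowest mice in muscle.

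Myh4, the fast type 2B myosin heavy chain, had 0, 551 and 49 counts in CON mice and 0, 0 and 214 in T + E2 mice. It was detected in the 3 mice named above and had 0 counts in the others, which allows a level of up to 0.182 to 0.207 CPM. Ckm had 56, 502 and 246 counts in CON mice and 95, 78 and 432 in T + E2 mice. The same 3 mice were high, and each of them was above each of the other 3. Acta1 had 941, 2638 and 1865 counts in CON mice and 1421, 1288 and 1946 in T + E2 mice. The mice came in the same order as for Ckm, but over a narrow range, 62.3 to 173.1 CPM against 3.70 to 32.9 CPM for Ckm. There were 16.8, 5.25 and 7.58 Acta1 counts for each Ckm count in CON mice and 14.96, 16.5 and 4.50 in T + E2 mice, so that mice with little Ckm and no Myh4 still held 941 to 1421 counts of Acta1.

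Acta1 lies at chr8:123891767-123894736, Ckm at chr7:19411094-19421583 and Myh4 at chr11:67238029-67260446. The Acta1 transcript was 86.3% identical to that of Actc1 over 1132 bases and 85.9% identical to that of Actb over 1105 bases. It was 85.4% identical to that of the smooth muscle actin Acta2 over 1133 bases and 85.05% identical to that of Actg2 over 1137 bases. Myh4 was 89.9% identical to Myh1 over 5916 bases, 88.1% identical to Myh2 over 5835 bases and 87.7% identical to Myh8 over 5845 bases. How reads that fit several genes were counted is not given in the sources used here, so the split between these paralogues is uncertain. Acta2 itself stood at 1114 to 1352 CPM in CON mice and 860 to 914 CPM in T + E2 mice. Its part in the Acta1 level was not tested, nor was that of the other actins.

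Of the 24 listed skeletal muscle genes, 22 had CON 2, CON 3 and T + E2 3 as their 3 highest mice. CON 2 was the highest for 16 of them, T + E2 3 for 7 and T + E2 1 for 1. Of the 5 other listed genes with the highest FPKM, Tnnc2 (fast troponin C) stood at 13.3, 31.2 and 29.0 CPM in CON mice and 19.3, 17.1 and 23.6 CPM in T + E2 mice. Myh1, the fast type 2X myosin heavy chain, stood at 3.18, 37.4 and 20.0 CPM in CON mice and 7.12, 5.90 and 64.9 CPM in T + E2 mice. Eno3 (muscle enolase), Tcap (a Z-disc protein) and Mb (myoglobin) ranged from 7.61 to 16.2, from 0.265 to 11.1 and from 0.595 to 12.3 CPM. All 3 of them were highest in CON 2, and Myh1 was highest in T + E2 3. Without Acta1 and Neb, the list's summed CPM was 51.2, 335.2 and 154.1 in CON mice and 63.0, 56.4 and 297.3 in T + E2 mice.

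Neb, which encodes the thin filament protein nebulin, was 1 of 2 exceptions to this pattern. The other was Actn3, a fast fibre actinin named here after its values were seen, at 3.04, 5.90 and 3.20 CPM in CON mice and 4.42, 5.53 and 12.3 CPM in T + E2 mice (log2 fold change 0.87, edgeR adjusted p = 0.191). Neb had 13, 148 and 50 counts in CON mice and 3188, 2788 and 2159 in T + E2 mice. All 3 T + E2 mice were above all 3 CON mice, and within the T + E2 group the order did not follow Ckm or Myh4. Its log2 fold change was 5.28 ± 0.64 (SE, n = 3 mice per group, edgeR adjusted p = 0.0012), 6.45 without CON 2 and 6.49 without both CON 2 and T + E2 2. Neb was the only DEG among the 22 tested muscle genes, beside 7.64% of all tested genes.

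Fat transcripts were high in CON 2 and lower and closer together in the other 5 mice. The summed CPM of Adipoq, Plin1 and Fabp4 was 51.9, 268.5 and 67.5 in CON mice and 76.3, 64.2 and 37.1 in T + E2 mice. CON 2 was the highest mouse, and the lowest T + E2 mouse, T + E2 3, was below all CON mice although it was second in muscle transcripts. The groups overlapped.

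Adipoq (chr16:23146536-23158028) had 133, 722 and 176 counts in CON mice and 178, 101 and 62 in T + E2 mice. Plin1 (chr7:79720218-79732903) had 96, 494 and 106 counts in CON mice and 98, 47 and 29 in T + E2 mice. Fabp4 (chr3:10204088-10208576) had 556, 2876 and 793 counts in CON mice and 828, 908 and 466 in T + E2 mice. In CPM, CON 2 was 3.85-fold, 4.79-fold and 3.30-fold above the next mouse for Adipoq, Plin1 and Fabp4. There were 1.39 to 1.66 Adipoq counts for each Plin1 count in CON mice and 1.82 to 2.15 in T + E2 mice. There were 5.79 to 7.48 Fabp4 counts for each Plin1 count in CON mice and 8.45 to 19.3 in T + E2 mice, so the groups did not overlap in either ratio. Both ratios were looked at after their values were seen and were not tested. Fabp4 is also made by endothelial cells and macrophages. The endothelial list of 6 genes had summed levels of 88.3 to 123.8 CPM in CON mice and 108.2 to 134.8 CPM in T + E2 mice, and its part in the ratio of Fabp4 to Plin1 was not tested.

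Of the 20 listed fat genes, CON 2 was the highest mouse for 19. Cfd (complement factor D, also called adipsin) stood at 56.8, 374.8 and 85.8 CPM in CON mice and 100.3, 61.7 and 31.5 CPM in T + E2 mice. Car3 (carbonic anhydrase 3) stood at 74.9, 412.8 and 84.2 CPM in CON mice and 133.8, 109 and 45.9 CPM in T + E2 mice. Both had the pattern of Adipoq, with CON 2 high and T + E2 3 low. Lpl (lipoprotein lipase), Dgat2 (a triglyceride synthesis enzyme) and Cidec (a lipid droplet protein) ranged from 37.8 to 143.8, from 9.66 to 27.4 and from 5.73 to 61.9 CPM, again with CON 2 as the highest mouse. Over the list, CON 2 stood at a median of 3.85 times the median of the other 5 mice. The same quantity was 5.16 for the muscle list, 378 for the seminal vesicle list and 1.00 over all tested genes.

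Cidea, a lipid droplet protein of brown fat that some epithelia also make, was the only fat gene not highest in CON 2. It had 20, 22 and 22 counts in CON mice and 58, 57 and 41 in T + E2 mice, so that the groups did not overlap. Its log2 fold change was 1.29 ± 0.25 (SE, n = 3 mice per group, edgeR adjusted p = 0.00909). It kept its call without CON 2 (1.32, adjusted p = 0.0305) and lost it without CON 2 and T + E2 2 (adjusted p = 0.0824). The brown fat gene Ucp1, named here after its values were seen, had 1 count in CON 2 and 0 in the other 5 mice. Lipe, Aqp7 and Lep, also named after their values were seen, did not overlap between the groups and were lower in T + E2 mice. Of all tested genes, 40.7% did not overlap. Lipe had a log2 fold change of -0.67 (edgeR adjusted p = 0.0769) and Aqp7 -1.94 (adjusted p = 0.0988). Lep did not pass the filter, with 3, 10 and 6 counts in CON mice and 0 in T + E2 mice.

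**Figure D3:**
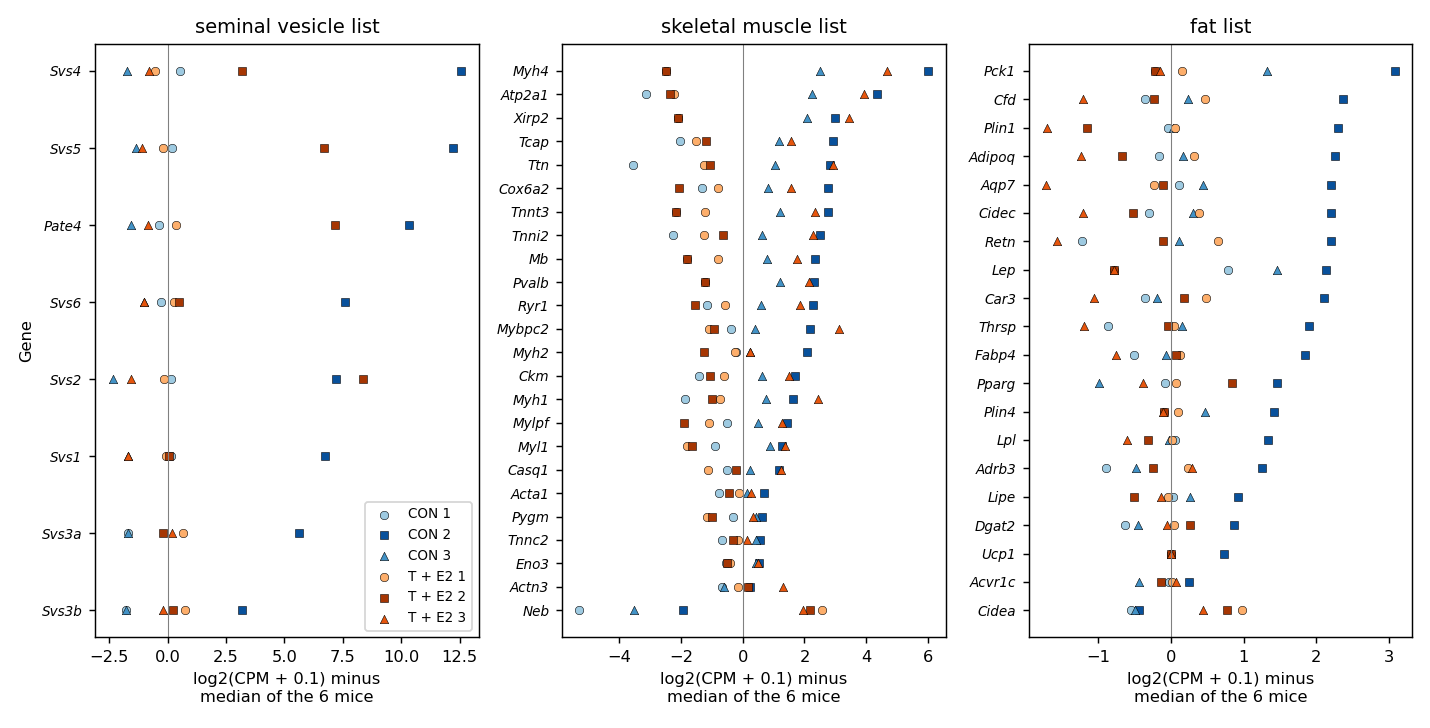
Log2(CPM + 0.1) of each gene of the seminal vesicle, skeletal muscle and fat lists in each mouse, minus the median of the 6 mice. CON 2 (dark blue squares) is the right-most point for 7 of 8 seminal vesicle, 16 of 24 muscle and 19 of 20 fat genes, and Neb and Cidea are the genes whose groups separate with the T + E2 mice to the right.

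The comparison of the T + E2 group with the CON group asked whether these genes changed with the hormone treatment. None of the 9 tested genes among the 10 was a DEG, against 1191 of all 15580 tested genes (7.64%), of which 665 were higher (4.27%) and 526 lower (3.38%) in the T + E2 group. At an unadjusted edgeR p under 0.05 there were 3, Svs4, Adipoq and Plin1, beside 5372 of all 15580 tested genes. DESeq2 called 0 of the 6 muscle and fat genes, beside 1258 of 22304 genes in all. It gave no adjusted p for Svs2, Svs4 and Svs5. Svs6 did not pass the filter on low counts, which asked for about 10 counts in 3 mice. The groups overlapped for all 10 genes, whereas they did not overlap for 40.7% of all tested genes. An exact two-sided permutation test of mean CPM gave p = 0.3 for Adipoq and Plin1, 0.7 for Svs4, Svs5, Acta1, Ckm, Myh4 and Fabp4, 0.8 for Svs2 and 0.9 for Svs6, and cannot go below 0.1 with 3 mice per group.

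The fold changes of the seminal vesicle genes had wide errors. Svs4 had a log2 fold change of -9.24 ± 3.27 (SE, edgeR adjusted p = 0.0852), which became 2.15 ± 1.40 (adjusted p = 0.352) without CON 2. Svs5 had -5.50 ± 3.07 (adjusted p = 0.243), which became 5.68 ± 2.46 (adjusted p = 0.176) without CON 2. Leaving out that 1 mouse therefore turned the direction of both. Svs2 had 1.12 ± 2.24 (adjusted p = 0.761), 7.57 ± 3.10 (adjusted p = 0.155) without CON 2 and -6.49 (adjusted p = 0.204) without T + E2 2. Without both mice Svs2 and Svs5 came to -0.05 ± 0.95 and -0.22 ± 0.74, and Svs4 no longer passed the filter.

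The muscle genes had small fold changes for their errors. Acta1 had a log2 fold change of -0.20 ± 0.34 (edgeR adjusted p = 0.711), Ckm -0.38 ± 0.82 (adjusted p = 0.781) and Myh4 -1.46 ± 1.75 (adjusted p = 0.594). Without CON 2 they were 0.18 ± 0.30, 0.47 ± 0.83 and 1.61 ± 1.99. All 3 changed sign, and none passed the test in either fit. Among the fat genes, Adipoq had -1.58 ± 0.67 (adjusted p = 0.139, unadjusted 0.0468), Plin1 -1.98 ± 0.72 (adjusted p = 0.0926, unadjusted 0.0254) and Fabp4 -0.94 ± 0.57 (adjusted p = 0.283). Without CON 2 these became -0.41 ± 0.41, -0.76 ± 0.47 and 0.14 ± 0.26, with adjusted p = 0.55, 0.329 and 0.765. Adipoq and Plin1 kept the negative sign without CON 2 and also without both mice (-0.28 and -0.58).

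**Figure D4:**
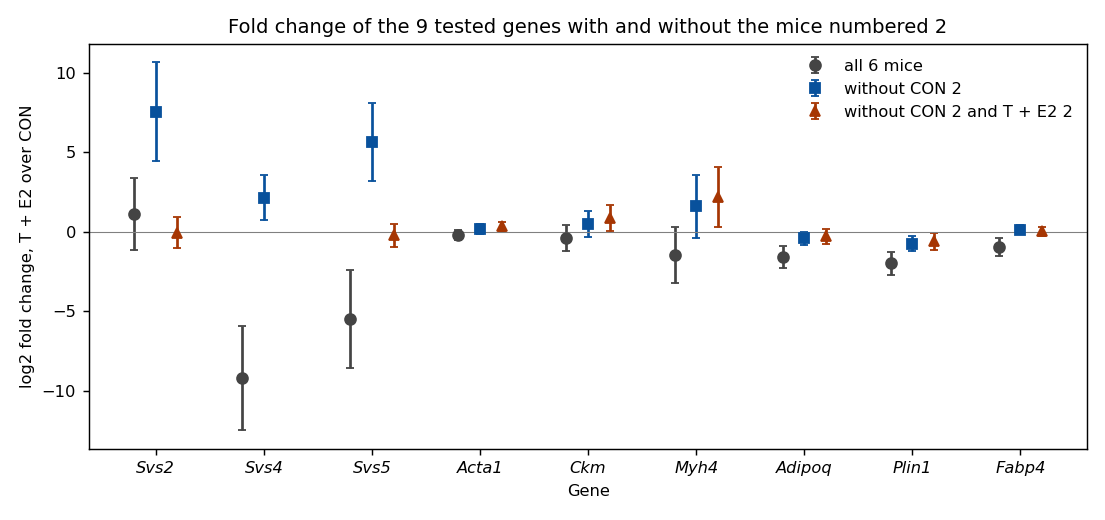
Log2 fold change of the T + E2 group over the CON group for the 9 tested genes, with bars of 1 SE, from all 6 mice (grey), without CON 2 (blue) and without CON 2 and T + E2 2 (orange). Svs4 and Svs5 move from below to above 0 when CON 2 is left out, and the fat genes move towards 0.

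The median log2 fold change of the 9 tested genes was -1.46 with 8 negative values, beside -0.002 over all tested genes, and it was 0.47 without CON 2. For the seminal vesicle list, 3 of 9 genes were tested with 0 DEGs and a median of -5.50, or 5.68 without CON 2. For the muscle list, 22 of 24 were tested, with 1 DEG (higher, Neb) and a median of -0.36, or 0.55 without CON 2. For the fat list, 18 of 20 were tested, with 1 DEG (higher, Cidea) and a median of -0.96, or -0.09 without CON 2. Thus the medians of the seminal vesicle and muscle lists changed sign and that of the fat list came close to 0 when CON 2 was left out. An upward shift was fixed in advance, because CON 2 was picked out by its high levels of these genes. Over all tested genes, 7.64% were DEGs with all 6 mice and 1080 of 15890 (6.8%) without CON 2. In both fits 944 genes were DEGs, which was 79.3% of the DEGs of all 6 mice and 87.4% of those without CON 2.

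Several of these genes were among the most variable within a group. In the CON group the SD of log2(CPM + 0.1) was 7.69 for Svs4, 7.42 for Svs5, 4.97 for Svs2 and 4.27 for Myh4, which ranked 1, 2, 4 and 6 from the top of the 15580 tested genes, whose median was 0.159. In the T + E2 group it was 5.36 for Svs2, 4.25 for Svs5 and 4.14 for Myh4, which ranked 1, 3 and 4, beside a median of 0.169. Svs4 had an SD of 2.22 in that group and ranked 26. Adipoq, Plin1 and Fabp4 lay at the 98.6th to 98.7th percentile in the CON group, and at percentiles 96.1, 97.3 and 89.7 in the T + E2 group. Acta1 had the smallest spread of the 9 in both groups, at the 95.8th percentile in the CON group and the 82.9th in the T + E2 group.

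Marker lists of other tissues were read in the same mice. CON 2 was the highest mouse for 14.8% of all tested genes, within the range of 13.3 to 22.6% over the 6 mice. In the smooth muscle list, in which Acta2, Tagln, Myh11 and Cnn1 had the highest FPKM, the summed level was 4724 CPM in CON 2 and 4198 and 5208 CPM in the other CON mice, and 3688 to 4028 CPM in T + E2 mice, all below the CON mice. All 7 smooth muscle genes had negative log2 fold changes, of which Acta2 (-0.50, edgeR adjusted p = 0.0137) and Des (-0.38, adjusted p = 0.044) passed the adjusted p but not the fold threshold, so that 0 of 7 were DEGs beside 7.64% of all tested genes. The endothelial list, led by Cdh5, Pecam1, Cldn5 and Tie1, stood at 123.8 CPM in CON 2 and 110.7 and 88.3 CPM in the other CON mice. The heart muscle list stood at 3.66 to 14.7 CPM with CON 2 the highest, and of its genes Actc1 had 55 counts in CON 2 and 8 to 27 in the others, Tnnt2 had 169 and 41 to 132, and Myl7, Myh6, Myh7 and Nppa had at most 2 counts in any mouse. The urothelial list was higher in the T + E2 group, at 1373 to 1701 CPM against 422.5 to 642 CPM. Upk1a alone stood at 1178 to 1421 CPM in T + E2 mice and 273.4 to 501.7 CPM in CON mice. Of the 4 tested genes Upk1a and Upk2 were DEGs (1.80 and 2.20, edgeR adjusted p = 0.00109 and 0.00322), beside 7.64% of all tested genes. Upk2 had only 10 to 14 counts in CON mice. Upk1b had 0.66 (adjusted p = 0.0171), and Upk3b overlapped between the groups (2.52, adjusted p = 0.128). Upk3a had 99 counts in T + E2 2 and at most 5 elsewhere. What these transcripts owe to tissue taken along at dissection was not tested.

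Levels of the members were correlated over the 6 mice within each tissue and, for some pairs, between tissues. Pearson correlations of log2(CPM + 0.1) were 0.672 to 0.978 for the 6 seminal vesicle pairs, 0.906 to 0.98 for the 3 muscle pairs and 0.877 to 0.99 for the 3 fat pairs. Between tissues they ranged from -0.06 (Svs2 and Ckm) to 0.955 (Svs6 and Fabp4), so that some pairs from different tissues were above pairs of the same tissue. These values describe 6 libraries in which CON 2 is high for all 3 tissues, and they carry no test. Among tested genes outside its own list, those most like the summed seminal vesicle genes were Maob (0.966), Pcdhgb7 (0.962), Pparg (0.959), Zmym6 (0.959) and B3galt2 (0.959). Pparg is in the fat list too and stood at 8.66 CPM in CON 2, 5.59 CPM in T + E2 2 and 1.51 to 3.25 CPM in the others. By the same rule, those most like the muscle sum were Kcnmb1 (0.994), Rnf39 (0.987), Zfp324 (0.984), Ttc17 (0.983) and Pex6 (0.982). Those most like the fat sum were 1110051M20Rik (0.986), Smoc1 (0.982), Snap47 (0.976), Postn (0.972) and Ifi27l2a (0.970). All were picked as the highest of 15580 tested genes over 6 mice, and a high correlation did not mean a large change. Maob and Zmym6 ranged only from 11.5 to 16.7 and from 28.9 to 36.9 CPM, against 0.628 to 9873 CPM for the seminal vesicle sum. Ttc17 and 1110051M20Rik ranged from 46.1 to 61.0 and from 8.87 to 10.5 CPM. Pparg, Pcdhgb7, B3galt2 (2.32 to 10.8 CPM) and Ifi27l2a (7.53 to 26.0 CPM) varied more.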

How the data were processed

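RNA from the prostates of 3 CON and 3 T + E2 mice was sequenced as paired-end libraries. The authors deposited 1 table with whole-number counts per gene and FPKM for each mouse. The submitters' processing notes name TopHat, Bowtie2 and HTSeq. The genome build, the strand setting and the handling of reads that fit several genes are not given in the sources used here, and the deposited spans of 8 of the 10 genes equal those of GENCODE M21 on GRCm38. The counts were used as deposited.

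The counts were tested in R 4.3.3 with edgeR 4.0.16 (filterByExpr with minimum count 10 and minimum total 15, TMM, quasi-likelihood test, Benjamini-Hochberg adjustment over all tested genes). This test was first checked on simulated counts. The study's methods name DESeq2, run here (1.42.0) as an alternative, as was limma 3.58.1 on FPKM. The members and gene lists were chosen with earlier results of these data known. Named genes were all members, the 5 other genes of highest mean FPKM and up to 4 DEGs of each tissue list, up to 4 of highest FPKM from each other marker list, and the 5 tested genes best correlated with each tissue's summed members. Transcripts were compared with BLAST+ 2.17.0+ (at least 80% identity over 200 bases, or 100 for Svs genes), and promoters came from RefSeq (GRCm38.p6). Intervals are 95% Clopper-Pearson, in which reads without molecular identifiers count as independent.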

Additional observations from a re-analysis of the deposited data

How the results depend on the processing

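Except with the replicate block, the alternatives gave 0 DEGs among those of the 9 tested genes that they could test. DESeq2 gave no adjusted p for Svs2, Svs4 and Svs5, and Svs4 did not pass the filter without both mice numbered 2. The replicate numbers name different mice, same-numbered mice deviated from their group means with correlations of -0.0516, 0.0275 and 0.0463, and not every mouse correlated best with its own number, so the samples were not treated as pairs. With the replicate block 1013 genes were DEGs in all, and Svs4 became a DEG (log2 fold change -8.62, edgeR adjusted p = 0.0312). Svs4, which was lower, was the 1 gene called among the 10 genes and also the 1 called on the seminal vesicle list. Leaving out 1 mouse at a time gave log2 fold changes of -6.49 to 7.57 for Svs2, -11.97 to 2.15 for Svs4, -11.40 to 5.68 for Svs5, -0.51 to 0.18 for Acta1, -1.62 to 0.47 for Ckm, -10.66 to 1.61 for Myh4 and -1.32 to 0.14 for Fabp4. Without both mice numbered 2, chosen after seeing the data, signs turned for Svs2 (-0.0497), Acta1 (0.34), Ckm (0.88), Myh4 (2.20) and Fabp4 (0.0266), and 298 genes were lower over the whole table. Adipoq and Plin1 stayed negative in every alternative run. Over all tested genes, limma on log2(FPKM + 1) called 561 (365 higher, 196 lower) and the adjusted p alone 3061 (1620 higher, 1441 lower). Leaving out 1 mouse gave 1 to 3 muscle DEGs, 0 to 2 of them lower (Pygm and Myl1 without T + E2 3), and 1 to 3 fat DEGs, 0 to 2 of them lower (Pck1 and Plin4 without CON 1). Of all tested genes, 972 to 1152 were DEGs in those runs. The fat list had 2 DEGs with DESeq2 and with no filter, of which 1 was lower (Lep), and 0, with 0 higher, with limma on log2(FPKM + 1) and without both mice. With no filter Svs6 had a log2 fold change of -6.77 (adjusted p = 0.0742). The cause of these changes was not tested. Counts of at most 7 in 5 of the 6 mice limit what can be said of Svs6, Svs1, Svs3a and Svs3b.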

Other observations

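The genes below were chosen after their values were seen and carry no test. Over all tested genes, 29 (0.186%) stood more than 3-fold above the next mouse in CON 2 and 20 (0.128%) in T + E2 2, against 1 to 8 in the other 4 mice. Of the 29 in CON 2, 2 were in the seminal vesicle list, 9 in the fat list, 1 in the muscle list and 17 in none. Among the 17 were Ren1, the gene of the enzyme renin, at 98.5 CPM beside 0.331 to 1.13 CPM in the other mice, Ceacam10 at 103.3 beside 7.42 to 16.9 CPM, and Cdo1, cysteine dioxygenase, at 180.8 beside 16.3 to 39.2 CPM. The transcription factor genes Elf5 (20.4 CPM beside 2.21 to 4.40) and Hoxb8 (9.84 beside 0.484 to 2.07) followed the same mouse. Pax2, a transcription factor of the urogenital ducts that did not pass the filter, stood at 3.94 CPM in CON 2 and at most 0.0691 CPM elsewhere.

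In T + E2 2 the acute phase genes Saa3 and Saa1 stood at 512.9 and 200.02 CPM, beside 0.590 to 12.6 and 0.262 to 11.5 CPM in the other mice, and Lcn2, an iron-binding protein of inflamed epithelia, at 244.5 beside 11.3 to 53.3 CPM. The surface epithelial genes Upk3a (6.02 CPM, at most 0.346 elsewhere), Upk3b (8.82, at most 2.07), Krt20 (7.30, at most 0.415) and Ivl (7.48, at most 0.133) were high in the same mouse. The globin gene Hbb-bs stood at 106.1 beside 8.67 to 31.5 CPM.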
